A study of Mus musculus and Rattus norvegicus with 79 samples.

Results

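The metallothioneins Mt1 and Mt2, their transcription factor Mtf1 and 4 zinc transporters, Slc30a1, Slc30a10, Slc39a4 and Slc39a14, were followed through mouse liver in fed and unfed animals and after deletion of the glucocorticoid receptor. These 7 genes, of 24790 in the deposited mouse tables, were chosen by name because Mt1 and Mt2 were lower after food in the same libraries. The fed and unfed values below are therefore a description, with no test. The stated reason for the choice does not use the experiment with the receptor deleted, so its comparisons are tested, but the genes were listed with results of both experiments known.

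Metallothioneins are small cysteine-rich proteins that bind zinc and copper in the cell. Their genes are switched on by the zinc-sensing factor MTF1, which binds metal response elements in their promoters, and by glucocorticoids acting through the glucocorticoid receptor, encoded by Nr3c1. In liver they are also induced during the acute phase response and by fasting. SLC30 proteins move zinc out of the cytosol and SLC39 proteins move it in. Slc30a1 encodes the plasma membrane zinc exporter ZnT1, itself a target of MTF1. Slc30a10 encodes a transporter that chiefly exports manganese. Slc39a14 encodes ZIP14, an importer of zinc, manganese and iron that takes up zinc into hepatocytes during inflammation. Slc39a4 encodes ZIP4, the zinc importer best known from the gut.

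Livers were sampled at zeitgeber times, hours after lights-on in a day of 12 h of light and 12 h of dark, from mice trained to eat at night. Fed and unfed C57BL/6 mice, which received no virus, were sampled at ZT13, ZT14, ZT18 and ZT22, and unfed C57BL/6 mice also at ZT10, giving 9 groups and 27 libraries of polyadenylated RNA. Nr3c1fl/fl mice, in which both copies of Nr3c1 carry loxP sites, received AAV-tbg-CRE or, as the control, AAV-tbg-GFP 10 days before sacrifice. They were sampled at ZT10 and ZT12, before food, and after food at ZT13, ZT14, ZT18 and ZT22, giving 12 groups and 36 libraries of ribosomal-RNA-depleted RNA. Both viruses use the tbg promoter, which is active in hepatocytes, so other cells of a CRE liver keep their receptor. Every group held 3 libraries. The labels give no age and do not say that replicates were separate animals, so p-values measure the spread between these libraries. Receptor ChIP-seq came from unfed liver at ZT10 of C57BL/6 mice without virus, which also gave an input sample, and of Nr3c1fl/fl mice given AAV-tbg-CRE or AAV-tbg-GFP. The samples in which the receptor was intact thus differed in strain and virus, and which of them are the replicates of the list of shared peaks is not stated in the labels.

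Mt2 and Mt1 lie next to each other on mouse chromosome 8, both on the plus strand (mm10). Mt2 covers chr8:94172618-94173567 and Mt1 chr8:94178883-94180327, with 5315 bases between them. The RefSeq start used for the promoter and the peak distances of Mt1 lies 206 bases inside that span and the one of Slc30a1 84 bases inside its span, while those of Mt2, Slc30a10 and Mtf1 coincide with the first base. Slc30a1 (chr1:191906697-191913248) and Slc30a10 (chr1:185454848-185468762) share chromosome 1, Mtf1 lies at chr4:124802549-124849800, Slc39a4 at chr15:76612383-76618506 and Slc39a14 at chr14:70303467-70351452. The promoters of both metallothioneins and of the 2 exporters are shown because metal response elements are the known zinc-responsive sites of this pathway. Each runs from 250 bases before to 50 bases after the RefSeq start (GRCm38.p6, plus strand), with matches to the core TGCACNC or TGCGCNC on either strand in capitals. The windows are chr8:94178839-94179138 for Mt1, chr8:94172368-94172667 for Mt2, chr1:191906531-191906830 for Slc30a1 and chr1:185454598-185454897 for Slc30a10.
Mt1: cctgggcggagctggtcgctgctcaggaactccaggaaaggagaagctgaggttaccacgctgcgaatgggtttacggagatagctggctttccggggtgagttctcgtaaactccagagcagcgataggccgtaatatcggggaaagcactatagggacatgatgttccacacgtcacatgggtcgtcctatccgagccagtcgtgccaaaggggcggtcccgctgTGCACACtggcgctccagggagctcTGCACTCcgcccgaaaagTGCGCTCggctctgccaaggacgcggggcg
Mt2: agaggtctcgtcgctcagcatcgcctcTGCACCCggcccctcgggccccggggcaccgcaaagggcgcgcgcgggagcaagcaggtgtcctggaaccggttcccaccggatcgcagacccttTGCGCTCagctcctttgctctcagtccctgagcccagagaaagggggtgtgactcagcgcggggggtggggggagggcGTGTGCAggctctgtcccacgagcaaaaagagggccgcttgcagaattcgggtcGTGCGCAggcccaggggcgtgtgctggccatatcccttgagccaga
Slc30a1: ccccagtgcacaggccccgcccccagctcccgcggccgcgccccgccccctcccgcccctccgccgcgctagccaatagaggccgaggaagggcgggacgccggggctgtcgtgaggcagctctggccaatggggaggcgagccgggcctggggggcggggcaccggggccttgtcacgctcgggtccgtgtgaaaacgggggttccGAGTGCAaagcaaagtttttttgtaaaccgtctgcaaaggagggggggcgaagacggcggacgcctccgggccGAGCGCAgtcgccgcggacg
Slc30a10: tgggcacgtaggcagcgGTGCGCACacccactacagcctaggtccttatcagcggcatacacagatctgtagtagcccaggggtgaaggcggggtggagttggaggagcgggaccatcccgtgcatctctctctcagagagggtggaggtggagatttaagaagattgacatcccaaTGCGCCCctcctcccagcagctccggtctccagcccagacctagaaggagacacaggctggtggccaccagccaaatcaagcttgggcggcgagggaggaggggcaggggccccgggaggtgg

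The Mt2 window held 4 core matches, the Mt1 and Slc30a10 windows 3 each and the Slc30a1 window 2. In Slc30a10, 2 of the 3 overlap on opposite strands, within the first capital run. In Mt1, 1 match lies 23 to 17 bases before the RefSeq start. The other 2 fall at bases 3 to 9 and 21 to 27 counted from that start. In Mt2, 1 match lies close to the RefSeq start, 50 to 44 bases before it, and 1 falls at bases 5 to 11 counted from it. Where transcription starts in these livers was not tested, so these positions do not place a match inside or outside the transcript. Sequence beyond the windows was not searched. Of 32851 RefSeq promoter windows of the same length, 25.7% held at least 1 such core and 1.97% held 3 or more. The Mtf1 window held none, and no window of that kind was at hand for Slc39a4 or Slc39a14. The letters AGAACA, a half-site of the glucocorticoid response element, were found on either strand only in the Mtf1 window, against 19.0% of all windows. A match describes the letters of the window and not a bound site.

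Libraries of C57BL/6 liver held 23.87 to 91.77 M counted reads and those of Nr3c1fl/fl liver 34.64 to 78.76 M. All 7 genes passed the filter on low counts in both experiments, as 7 of 14744 and of 15712 genes tested. The row NR_046233 took 2.23% to 28.5% of the counts in Nr3c1fl/fl libraries and over 20% in 6 of them, which were the 3 GFP libraries and 1 CRE library of ZT10 and 2 GFP libraries of ZT12. Nr3c1 was lower in CRE livers by 0.63 ± 0.06 on the log2 scale (SE) over the 6 times (adjusted p = 1.85e-09). It passed at each time from ZT10 to ZT14, but neither at ZT18 (-0.42, adjusted p = 0.342) nor at ZT22 (-0.52, adjusted p = 0.141). Its counts cover the whole transcript, and which exons the deletion removes is not stated in the labels. All 9 hepatocyte markers were detected in both experiments. In C57BL/6 liver the third unfed library of ZT18 stood out in pancreatic acinar markers and the first fed library of ZT14 in bile duct markers, and without both the fed minus unfed change was -2.37 for Mt1 and -2.82 for Mt2 on the log2 scale. In tissue, fewer cells of a type and less RNA per cell cannot be told apart.

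Mt1 and Mt2 were lower in fed than in unfed C57BL/6 liver, slightly at ZT13 and by more than 10-fold at ZT18 and ZT22. Levels are counts per 1000000 reads (CPM) over library sizes scaled by the trimmed mean of M-values. At ZT13 Mt1 stood at 61.4, 97.3 and 60.8 CPM in the fed livers, against 112, 87.7 and 157 CPM in the unfed livers. At ZT14 the fed livers held 82.4, 143 and 119 CPM of Mt1, against 271, 252 and 205 CPM in the unfed livers. The groups overlapped at ZT13 and were apart at ZT14. At ZT18 Mt1 read 8.35, 8.82 and 7.88 CPM in the fed livers, against 229, 64.9 and 190.5 CPM in the unfed livers. At ZT22 it read 5.63, 13.7 and 5.13 CPM in the fed livers, against 66.0, 127 and 150.5 CPM in the unfed livers. The fed replicates of ZT18 lay close together, while the unfed replicates of that hour spanned a wide range.

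Mt2, the neighbouring metallothionein gene, had the same pattern and did not overlap between fed and unfed livers at any of the 4 hours. At ZT14 it stood at 52.1, 61.3 and 57.2 CPM in fed livers, against 205, 175 and 162 CPM in unfed livers. At ZT18 it read 3.70, 4.59 and 4.24 CPM in fed livers, against 192, 53.6 and 115 CPM in unfed livers. At ZT22 fed livers held 1.72, 10.4 and 1.83 CPM, against 49.8, 68.4 and 92.6 CPM in unfed livers. The second fed library of ZT22 stood above the other 2 for both genes. The share of genes whose 3 fed libraries all lay below the 3 unfed ones was 9.24%, 14.9%, 20.2% and 16.3%, hour by hour. By hour, from ZT13 to ZT22, the unfed means were 1.63, 2.11, 19.3 and 14.1 times the fed means for Mt1, and 1.95, 3.17, 28.8 and 15.1 times for Mt2. Without the second fed library of ZT22 the ZT22 ratios were 21.3 for Mt1 and 39.7 for Mt2.

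**Figure D1:**
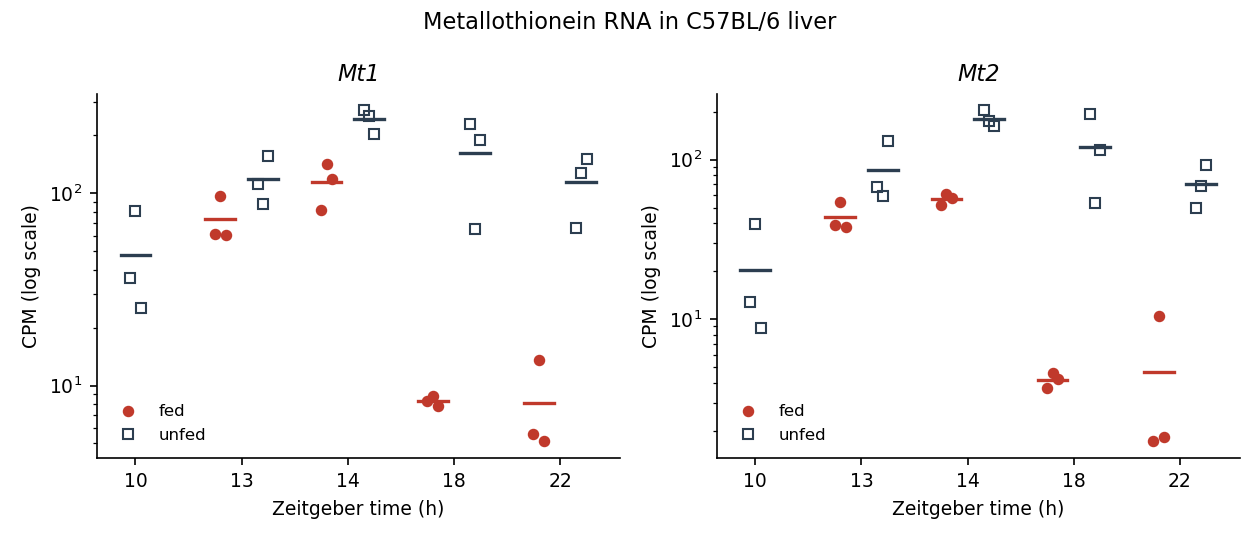
Mt1 and Mt2 in C57BL/6 liver by zeitgeber time, in CPM on a log axis, with 1 point per library. Short lines mark the group means, and fed livers are listed before unfed livers. Fed livers lie at 5.13 to 13.7 CPM of Mt1 at ZT18 and ZT22, while unfed livers lie at 64.9 to 229 CPM.

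Without food, both metallothioneins had higher means at every hour of the night than at ZT10. Unfed Mt1 averaged 47.6 ± 29.5 CPM at ZT10, and then, from ZT13 to ZT22, 119 ± 35.3, 242.5 ± 34.1, 161 ± 85.7 and 115 ± 43.7 CPM (SD, n = 3 each). Unfed Mt2 averaged 20.4 ± 16.7, 85.5 ± 39.1, 181 ± 21.9, 120.2 ± 69.3 and 70.3 ± 21.5 CPM at the same times. The unfed ZT14 means were 5.10 times the ZT10 mean for Mt1 and 8.85 times for Mt2, or 7.85 and 16.7 times without the second library of ZT10. In fed livers the means of ZT13 and ZT14 were 73.2 ± 20.9 and 115 ± 30.4 CPM for Mt1 and 43.8 ± 9.25 and 56.9 ± 4.62 CPM for Mt2. The fed means of ZT18 and ZT22 were 8.35 ± 0.47 and 8.14 ± 4.79 CPM for Mt1 and 4.18 ± 0.446 and 4.65 ± 4.99 CPM for Mt2. With the 9 groups ordered by mean, neighbours overlapped in all 8 steps for Mt2 and in 7 of 8 for Mt1. The 1 gap for Mt1 lay between unfed ZT10 and fed ZT18, so the fed groups of ZT18 and ZT22 stood below all others, ZT10 included.

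Averaged over the 4 hours, the fed minus unfed log2 change was -2.46 ± 0.22 for Mt1 and -2.84 ± 0.26 for Mt2 (SE). Among the other members it was 0.48 ± 0.08 for Slc30a10, 0.22 ± 0.07 for Slc39a4, 0.15 ± 0.05 for Mtf1, -0.15 ± 0.06 for Slc30a1 and -0.17 ± 0.06 for Slc39a14. None of these is given a test, since the rule used this contrast, in which 35.4% of all genes tested passed an adjusted p of 0.05. All 10 endothelial markers were lower in fed livers, with summed levels of 288.8 to 408.84 CPM in fed livers and 377 to 494.49 CPM in unfed livers. None of 11 Kupffer cell markers passed between fed and unfed livers, while 7 passed over time in unfed livers. The part of either cell type in the metallothionein values was not tested.

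The manganese exporter gene Slc30a10 climbed through the night in both feeding states. Its means in fed livers were 25.4 ± 4.84, 29.5 ± 3.04, 91.7 ± 7.74 and 121.8 ± 8.25 CPM at ZT13, ZT14, ZT18 and ZT22. In unfed livers the means at those hours were 15.8 ± 3.37, 27.5 ± 5.39, 62.6 ± 7.29 and 81.0 ± 3.27 CPM, after 17.6 ± 4.34 CPM at ZT10. Time was tested within each feeding state by edgeR's quasi-likelihood F-test with Benjamini-Hochberg adjustment over all genes. Slc30a10 changed over time in unfed livers (adjusted p = 2.78e-11) and in fed livers (adjusted p = 4.63e-11). Its fed libraries lay above the unfed ones at ZT13, ZT18 and ZT22, as did those of 8.15%, 19.7% and 16.6% of all genes, and overlapped them at ZT14. Among the 7 genes it had the most steps without overlap, with 3 of 8.

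The importer gene Slc39a14 followed the opposite course, with its peak at ZT13. It averaged 390.5 ± 25.9, 309 ± 31.1, 183 ± 10.95 and 178 ± 24.8 CPM in fed livers from ZT13 to ZT22, against 389 ± 11.8, 329 ± 11.7, 239.9 ± 27.8 and 207 ± 33.4 CPM in unfed livers, with 267 ± 40.9 CPM unfed at ZT10. It changed over time in unfed livers (adjusted p = 9.01e-06) and in fed livers (adjusted p = 3.47e-08). Fed and unfed libraries were apart only at ZT18, with the fed ones below, as for 20.2% of all genes. Mtf1 averaged 24.6 ± 3.14 CPM in unfed livers at ZT10, and 37.3 ± 2.53 CPM in fed against 33.8 ± 2.31 CPM in unfed livers at ZT13. At ZT14 its fed libraries lay above the unfed ones, as did those of 12.8% of all genes. It changed over time in unfed (adjusted p = 0.00147) and fed livers (adjusted p = 0.00759).

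Slc30a1, the exporter gene that MTF1 controls, went against Mt1 and Mt2 at ZT13 and with them later in the night, though over a far smaller range. Its means were 65.9 ± 6.84, 61.3 ± 2.20, 65.2 ± 9.13 and 56.3 ± 7.73 CPM in fed livers at ZT13, ZT14, ZT18 and ZT22, against 53.0 ± 6.90, 65.8 ± 1.16, 86.5 ± 12.8 and 74.6 ± 9.88 CPM in unfed livers. Its fed libraries lay below the unfed ones at ZT14, ZT18 and ZT22, as did those of 14.9%, 20.2% and 16.3% of all genes. Fed and unfed libraries overlapped at ZT13, and the ZT14 log2 change was -0.104 ± 0.125 (SE). Slc30a1 changed over time in unfed livers (adjusted p = 1.62e-04), where ZT18 had the highest mean, and did not pass in fed livers (adjusted p = 0.37). Slc39a4 passed in neither state, with adjusted p = 0.214 in unfed and 0.299 in fed livers. Its group means lay between 51.5 and 70.08 CPM, with the fed libraries above the unfed ones at ZT18, as for 19.7% of all genes. Without the third fed library of ZT22 its fed adjusted p was 0.0362. In all, 3 of the 5 members tested passed over time in fed livers, where 37.2% of all genes did, and 4 of 5 in unfed livers, where 42.5% did.

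**Figure D2:**
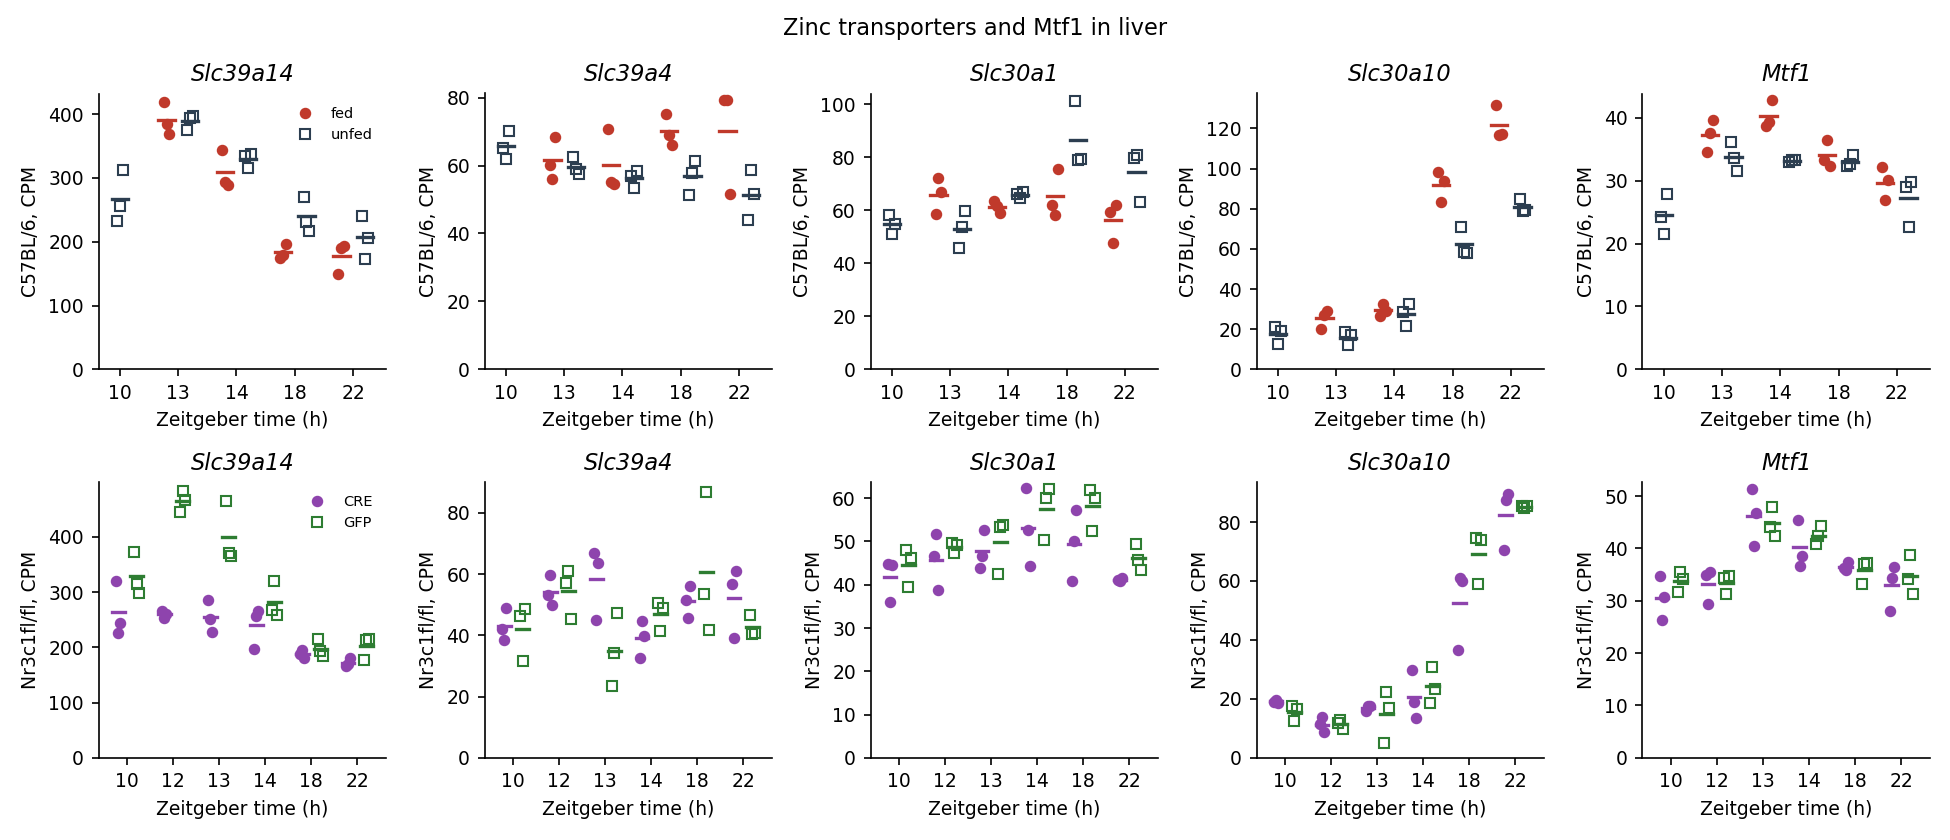
Slc39a14, Slc39a4, Slc30a1, Slc30a10 and Mtf1 by zeitgeber time in CPM, with 1 point per library and short lines at group means. The upper row shows fed and unfed C57BL/6 liver and the lower row CRE and GFP Nr3c1fl/fl liver. Slc30a10 is highest at ZT22 in every series, and Slc39a14 is lower in CRE than in GFP liver at ZT12 and ZT13.

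Deletion of the receptor in hepatocytes lowered Mt1, Mt2 and Slc39a14 over the 6 times, and the other 4 members did not pass. Averaged over the 6 times, the CRE minus GFP log2 change was -2.37 ± 0.28 for Mt1 (adjusted p = 2.94e-07), -3.35 ± 0.38 for Mt2 (adjusted p = 1.96e-07) and -0.39 ± 0.05 for Slc39a14 (adjusted p = 2.13e-06). In this comparison 6.64% of all genes tested fell and 7.92% rose, 14.6% in all, against 3 of the 7 members, all lower. The change was -0.13 ± 0.05 for Slc30a1 (adjusted p = 0.115), -0.04 ± 0.05 for Mtf1 (adjusted p = 0.643), -0.03 ± 0.13 for Slc30a10 (adjusted p = 0.928) and 0.09 ± 0.09 for Slc39a4 (adjusted p = 0.597). The 3 calls held with each of the 36 libraries left out in turn. Of 9 hepatocyte markers 6 were also lower in CRE livers, and the median log2 change of the 9 was -0.23. Their summed levels were 38776 to 60224 CPM in CRE and 46678 to 70563 CPM in GFP livers. Tdo2 (-0.42) was 1 of the 6 and is named below among the genes most like Mt1 and Mt2. The part of hepatocyte content in the values of the members was not tested.

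Mt1 was lower in every CRE library than in every GFP library at 4 of the 6 times. At ZT10 it stood at 5.09, 4.34 and 15.9 CPM in CRE livers, against 33.9, 12.3 and 23.6 CPM in GFP livers, and the groups overlapped. At ZT12 CRE livers held 10.8, 54.0 and 17.6 CPM, against 108, 285 and 61.5 CPM in GFP livers. At ZT13 they held 11.3, 6.49 and 7.67 CPM, against 149, 59.2 and 53.4 CPM in GFP livers. The groups were apart at both times, and the second library stood high at ZT12 in each. Those libraries also stood high in markers of several cell types, immune cells among them. In GFP livers of ZT12 the second library was also highest in hepatocyte, endothelial, bile duct, lymphoid, red blood and fat markers, but not in stellate or pancreatic acinar markers. In CRE livers of ZT12 the second was also highest in stellate, bile duct, lymphoid, red blood and fat markers, but not in hepatocyte, endothelial or pancreatic acinar markers. The 11 Kupffer cell markers summed to 356 CPM in the second CRE library against 153 and 250.87 CPM in the other CRE libraries of ZT12, and to 342 CPM in the second GFP library against 194 and 198 CPM in the other GFP libraries. Of 7 neutrophil markers only 1 passed the filter. This marker stood at 0.545 CPM in that CRE library and 2.33 CPM in that GFP library, against at most 0.185 CPM in the others of ZT12. These values lie close to the detection limit. The part of any of these cell types in the Mt1 and Mt2 values was not tested. At ZT14 the values were 4.28, 12.99 and 9.10 CPM in CRE livers, against 26.6, 60.7 and 37.4 CPM in GFP livers. At ZT18 they were 0.993, 1.02 and 1.05 CPM in CRE livers, against 8.04, 9.93 and 5.46 CPM in GFP livers. ZT18 held the lowest and tightest CRE values of Mt1. At ZT22 the groups overlapped again, at 2.01, 0.591 and 2.12 CPM in CRE livers and 1.25, 7.22 and 6.65 CPM in GFP livers.

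Mt2 was at or below 2.87 CPM in all but 1 of the 18 CRE libraries, and its CRE values at ZT18 rested on 4, 2 and 6 reads. At ZT10 it stood at 0.526, 1.12 and 1.89 CPM in CRE livers, against 12.7, 1.74 and 8.07 CPM in GFP livers. At ZT12 it read 1.80, 13.04 and 2.87 CPM in CRE livers, against 39.5, 173 and 20.4 CPM in GFP livers. At ZT13 it read 2.12, 0.735 and 0.838 CPM in CRE livers, against 72.5, 30.01 and 25.6 CPM in GFP livers. At ZT13 the GFP mean was 10.3 times the CRE mean for Mt1 and 34.7 times for Mt2, or 6.64 and 22.6 times without the first GFP library. Without the first CRE library of ZT13 the Mt2 ratio was 54.3. At ZT14 Mt2 read 0.713, 1.45 and 0.975 CPM in CRE livers, against 7.99, 10.5 and 8.33 CPM in GFP livers. At ZT18 CRE livers held 0.153, 0.0599 and 0.210 CPM, against 3.50, 2.75 and 0.835 CPM in GFP livers. At ZT22 the groups overlapped, with 1.27, 0.369 and 0.530 CPM in CRE livers and 0.0778, 2.47 and 3.37 CPM in GFP livers, the lowest of which rested on 2 reads.

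**Figure D3:**
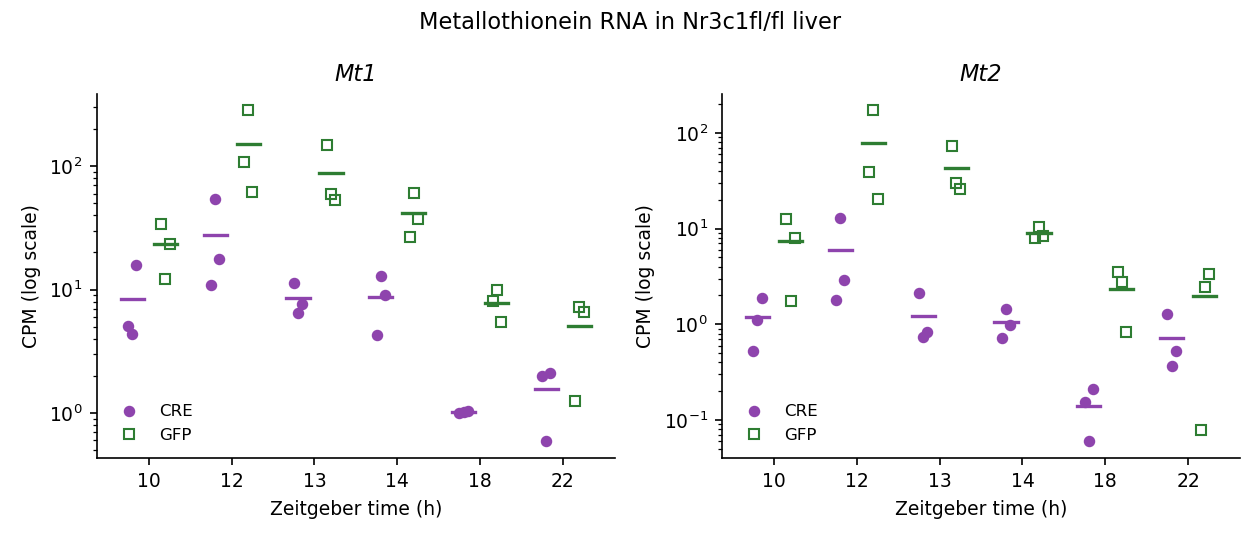
Mt1 and Mt2 in Nr3c1fl/fl liver by zeitgeber time, in CPM on a log axis, with 1 point per library. Short lines mark the group means, and CRE livers are listed before GFP livers. CRE libraries lie below GFP libraries at ZT12, ZT13, ZT14 and ZT18 for both genes, and the groups overlap at ZT10 and ZT22.

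Tested at each time, the metallothioneins passed the threshold at ZT13 and, less firmly, at ZT12. At ZT13 the CRE minus GFP log2 change was -3.37 ± 0.64 for Mt1 (adjusted p = 0.00108) and -5.12 ± 0.85 for Mt2 (adjusted p = 2.01e-04), where 5.04% of all genes passed. At ZT12 it was -2.45 ± 0.60 for Mt1 (adjusted p = 0.0152) and -3.69 ± 0.75 for Mt2 (adjusted p = 0.00262), where 3.75% did. Without the second GFP library of ZT12 the ZT12 changes were -1.61 for Mt1 (adjusted p = 0.24) and -2.32 for Mt2 (adjusted p = 0.104), and in a fit that also held the share of NR_046233 they were -1.49 (adjusted p = 0.54) and -2.38 (adjusted p = 0.281). Without the libraries over 20% NR_046233 only the third GFP library of ZT12 remained. The ZT12 changes were then -1.15 for Mt1 and -1.78 for Mt2. Mt1 also missed the threshold at ZT12 without the first (adjusted p = 0.112) or the third CRE library (adjusted p = 0.0937).

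No member passed at ZT10, ZT14, ZT18 or ZT22, where 0.694%, 1.57%, 0.102% and 0.146% of all genes did. The log2 changes at those times were -1.52, -2.26, -2.92 and -1.74 for Mt1 (adjusted p = 0.357, 0.0584, 0.15 and 0.424) and -2.68, -3.11, -3.99 and -1.48 for Mt2 (adjusted p = 0.213, 0.0581, 0.342 and 0.66). With DESeq2 both passed at ZT14 (adjusted p = 0.0298 for Mt1 and 0.0286 for Mt2) and at ZT18 (adjusted p = 0.00846 and 0.0143). The share of genes with every CRE library below every GFP library was 7.55%, 11%, 10.9%, 9.52%, 8.55% and 6.13%, in order from ZT10 to ZT22. Whether the CRE effect changed with time was tested as an interaction, which 0.687% of all genes passed. No member did, with adjusted p = 0.769 for Mt1 and 0.633 for Mt2.

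Slc39a14 was lower in CRE livers at ZT12 and ZT13, and its groups overlapped at the other 4 times. At ZT12 it stood at 265, 254 and 259.7 CPM in CRE livers, against 445, 484 and 467 CPM in GFP livers (log2 change -0.84 ± 0.13, adjusted p = 8.76e-05). At ZT13 it stood at 285, 250.5 and 228 CPM in CRE livers, against 465, 370.3 and 365 CPM in GFP livers (log2 change -0.65 ± 0.13, adjusted p = 0.00153). The ZT12 call held when the share of NR_046233 was put into the fit (-0.70, adjusted p = 0.00413). Without the 6 libraries over 20%, which left only the third GFP library at ZT12, the change was -0.84. With only the ZT13 groups in the fit the ZT13 adjusted p was 0.112. At ZT18 the CRE mean was 188 ± 7.002 CPM and the GFP mean 198 ± 15.4 CPM, a log2 change of -0.07 (adjusted p = 0.92). The interaction with time gave an adjusted p of 0.102, against 0.0342 without the first CRE library of ZT14, 0.0431 without the third GFP library of ZT13 and 0.00873 with DESeq2.

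Slc30a10 had its highest mean at ZT22 in CRE and in GFP livers, and its interaction with time did not pass (adjusted p = 0.863). Its means at ZT10, ZT12, ZT13, ZT14, ZT18 and ZT22 were 19.2, 11.3, 17.0, 20.7, 52.5 and 82.5 CPM in CRE livers and 15.5, 11.5, 14.8, 24.3, 69.2 and 85.2 CPM in GFP livers. The ZT22 mean was 7.30 times the ZT12 mean in CRE livers and 7.40 times in GFP livers. Slc39a4 stood at 66.8, 44.9 and 63.7 CPM in CRE livers at ZT13, against 23.6, 34.4 and 47.2 CPM in GFP livers. The groups overlapped, and the log2 change of 0.74 ± 0.23 missed the threshold (adjusted p = 0.0512). It passed with DESeq2 (adjusted p = 0.0208), without the third GFP library of ZT13 (1.00, adjusted p = 0.00687) and without the second CRE library (0.89, adjusted p = 0.0343). Slc30a1 group means lay between 41.2 and 53.1 CPM in CRE livers and between 44.6 and 58.2 CPM in GFP livers. Those of Mtf1 lay between 30.6 and 46.3 CPM in CRE and between 33.5 and 44.8 CPM in GFP livers. Every CRE library lay above every GFP library for Slc30a10 at ZT10 (edgeR adjusted p = 0.801). For Slc30a1 every CRE library lay below at ZT22 (edgeR adjusted p = 0.714), as for 6.13% of all genes.

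**Figure D4:**
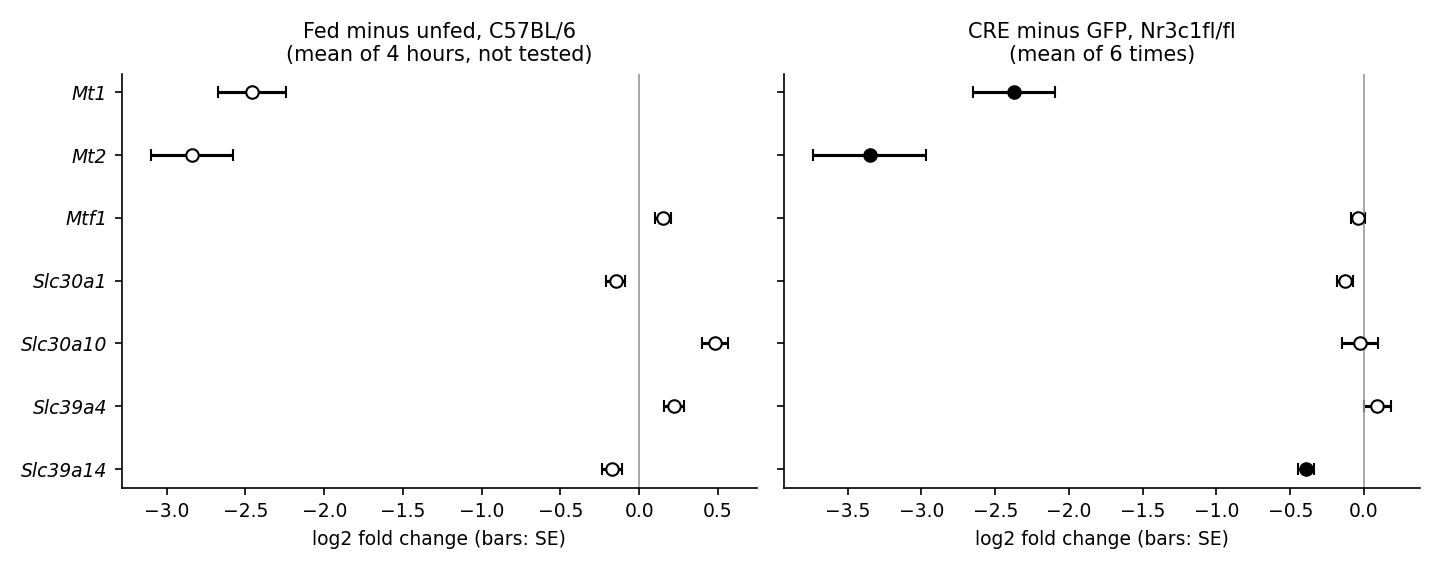
Log2 change of each member in the fed minus unfed mean of 4 hours (left, not tested) and in the CRE minus GFP mean of 6 times (right), with bars of 1 SE, filled points past an adjusted p of 0.05 and open points not past it or not tested. On the right the filled points are Mt1 at -2.37, Mt2 at -3.35 and Slc39a14 at -0.39.

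In GFP livers the 3 genes that the deletion lowered also rose as lights-off approached. From ZT10 to ZT12, before food, Mt1 rose by 2.67 ± 0.62 on the log2 scale (adjusted p = 0.0147), Mt2 by 3.31 ± 0.76 (adjusted p = 0.0138) and Slc39a14 by 0.50 ± 0.13 (adjusted p = 0.0243), where 3.81% of all genes passed. Mean Mt1 was 151 ± 118 CPM at ZT12 and 23.3 ± 10.8 CPM at ZT10. In CRE livers the step was 1.74 ± 0.63 for Mt1 (adjusted p = 0.146), 2.30 ± 0.87 for Mt2 (adjusted p = 0.167) and -0.02 ± 0.13 for Slc39a14 (adjusted p = 0.969), where 1.77% passed. The difference of the steps, CRE minus GFP, was -0.93 ± 0.86 for Mt1, -1.01 ± 1.16 for Mt2 and -0.52 ± 0.18 for Slc39a14. None passed, nor did any other gene (0 by edgeR, 643 at an unadjusted p under 0.05, and 1 by DESeq2). All 3 GFP calls were lost without the second or the third GFP library of ZT10 or the second of ZT12. That ZT12 library also stood high in markers of several cell types, Kupffer cells and hepatocytes among them. In this step 5 of the 6 GFP libraries held over 20% of their counts in NR_046233. With the share of that row in the fit all 3 passed (adjusted p = 0.00598 for Mt1, 0.00591 for Mt2 and 0.00755 for Slc39a14).

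Across the first hour of food, from ZT12 to ZT13, Mtf1 rose in CRE and GFP livers and the metallothioneins did not pass. Hour and food change together in this step, and Nr3c1fl/fl mice have no unfed group at ZT13. A change with the hour and a change with food therefore cannot be told apart. Mtf1 rose by 0.48 ± 0.11 in CRE livers (adjusted p = 0.00578) and by 0.42 ± 0.11 in GFP livers (adjusted p = 0.0359), where 9.38% and 2.95% of all genes passed. The CRE call was lost without the second CRE library of ZT12 (adjusted p = 0.0622). The GFP call was lost without any 1 GFP library of ZT12 or the second of ZT13 (adjusted p = 0.072 to 0.117). Without the libraries over 20% NR_046233 the GFP step had only the third GFP library at ZT12, so its call is not given. The step of Mt1 was -1.70 in CRE livers (adjusted p = 0.0754) and -0.78 in GFP livers (adjusted p = 0.53). For Mt2 it was -2.28 in CRE livers (adjusted p = 0.0774) and -0.85 in GFP livers (adjusted p = 0.571). For the difference in this step between CRE and GFP, no gene passed with edgeR in the fit of all libraries (0 by edgeR, 0 to 5 with each library left out, 634 at an unadjusted p under 0.05, and 10 by DESeq2).

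The balance of the 2 metallothioneins differed between CRE and GFP livers. Within a library, Mt2 counts were a median 0.164 of Mt1 counts in CRE livers (range 0.0588 to 0.632) and 0.342 in GFP livers (range 0.0625 to 0.608), with 18 libraries each. On the log2 scale the mean ratio was -2.54 in CRE and -1.74 in GFP livers, a difference of -0.80 (two-sided permutation test with 100000 resamples, p = 0.0078). The ratio is not corrected for transcript length, and at ZT22 it ran the other way, with medians of 0.625 in CRE and 0.342 in GFP livers. The CRE ratios of ZT18 rest on Mt2 counts of 4, 2 and 6. With the receptor intact the ratio also varied by time. Its group medians ran from 0.223 at ZT14 to 0.485 at ZT13 in GFP livers, and from 0.352 at ZT10 to 0.825 at ZT18 in unfed C57BL/6 livers. In C57BL/6 liver the median was 0.529 in fed livers (0.305 to 0.762, 12 libraries) and 0.67 in unfed livers (0.348 to 0.839, 15 libraries), given as a description.

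Of 22 other zinc transporters and metallothioneins, 19 were tested in C57BL/6 liver, where Slc39a11 rose with food and 4 fell, with 17.5% of all genes higher and 17.9% lower. These were Slc39a8, encoding the importer ZIP8 (-0.28 ± 0.05, adjusted p = 1.13e-04), Slc39a6 (-0.38, adjusted p = 0.00455), Slc30a3 (-1.31, adjusted p = 0.00191) and Slc30a8, the zinc transporter of insulin granules (-1.22, adjusted p = 0.0317), although the list's median log2 change was 0.01. Slc30a3 and Slc30a8 were close to the detection limit, with group means of 0.111 to 0.941 CPM and 0.115 to 0.666 CPM. Over time, 8 of the 19 passed in fed livers and 7 in unfed livers, where 37.2% and 42.5% of all genes did. Of the 18 tested in Nr3c1fl/fl liver, 1 rose in CRE, Slc39a9 (0.13, adjusted p = 0.0096), and none fell, where 7.92% of all genes rose and 6.64% fell. Of 4 further genes linked to MTF1 in mouse liver, none passed between fed and unfed livers. Among them Gclc, which encodes the catalytic subunit of the enzyme that starts glutathione synthesis, rose in CRE (0.34, adjusted p = 0.00122).

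Of all genes tested, 17.5% were higher and 17.9% lower in fed livers, and 7.92% were higher and 6.64% lower in CRE livers. Of 18 iron genes, 4 were higher and 5 lower in fed livers, among them Tfrc, the transferrin receptor (0.50), and 3 of 18 higher in CRE livers. Of 11 copper genes, 3 were higher and 2 lower in fed livers. In CRE livers Cp, encoding the copper oxidase ceruloplasmin, fell by 0.51 (adjusted p = 3.80e-07) and Atp7b, the copper exporter gene of hepatocytes, rose by 0.37 (adjusted p = 6.88e-05). Of 9 NRF2 targets tested, 3 rose and 1 fell in fed livers, and 2 rose and 1 fell in CRE livers. Of 18 acute phase and IL-6 response genes, 7 fell and 1 rose in fed livers and 8 fell in CRE livers, while the others did not pass, with median log2 changes of -0.20 and -0.34. Hp, encoding haptoglobin, fell by 0.24 in fed and by 0.76 in CRE livers. Of 12 glucocorticoid-induced genes, 10 fell in fed livers (median -0.53) and 11 in CRE livers (median -0.75), while the median of all genes was 0.01 with food and -0.00429 with the deletion. Fkbp5, encoding a chaperone of the receptor, fell by 0.90 with food and by 1.77 with the deletion. The 2 comparisons come from separate libraries, and these lists were drawn up with the direction of some of their genes known.

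Receptor peaks lay at both metallothionein genes. Of the 5772 peaks called in both replicates, 1 covers chr8:94178864-94179072, 225 to 17 bases before the RefSeq start of Mt1, and overlaps the promoter shown above. A second covers chr8:94171437-94171645, 1181 to 973 bases before the start of Mt2. All 5772 peaks have the same coordinates in the list called against CRE liver chromatin and overlap a peak of the list called against input by at least 1 base, so their presence there follows from how the lists relate. In the list called against input the Mt1 peak runs from 178 bases before to 16 bases after the start. Slc30a10 held 1 peak inside the gene (chr1:185456634-185456842). Slc39a14 had 3, of which 2 lie inside the gene (chr14:70331447-70331655 and chr14:70336579-70336787) and 1 lies 3.4 kb away (chr14:70354810-70355018). The nearest peaks to Slc39a4, Mtf1 and Slc30a1 were 28.0, 59.3 and 59.5 kb away. Thus 4 of 7 members had a peak within 25 kb, against 28.6% of the 15818 genes tested in either experiment with a place in the annotation. Mt1 and Mt2 are counted through the same 2 peaks, so the 4 members are not 4 separate places. Slc39a14, at 47986 bases, is the longest of the 7 genes. In the wider lists all 7 members had a peak within 25 kb. Of the 15818 genes, 62.0% had one against input and 70.3% against CRE chromatin. The lists hold no peak height, and the peaks come from ZT10, when no member passed the CRE against GFP test.

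**Figure D5:**
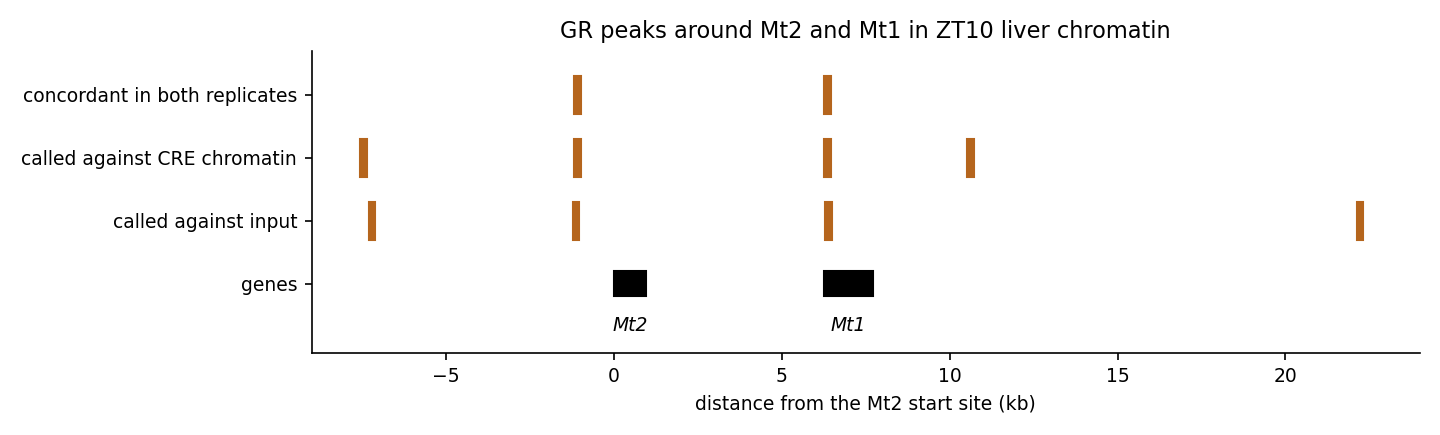
Receptor peaks of the 3 lists around Mt2 and Mt1, by distance in kb from the Mt2 start site, with the 2 genes as bars. The peak at the Mt1 start lies 225 to 17 bases before it in the list called in both replicates, whose peaks all have a counterpart in the 2 wider lists.

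The genes whose course was most like that of the metallothioneins were ranked by the lower of 2 Pearson correlations with the mean log2 level of Mt1 and Mt2, over the 27 C57BL/6 libraries and over the 36 Nr3c1fl/fl libraries, among 9574 genes. The first 6 were Camk2b (0.871 and 0.891), Map1lc3b (0.878 and 0.863), Fbxo31 (0.907 and 0.862), Fkbp5 (0.841 and 0.893), Tdo2 (0.881 and 0.836) and E030018B13Rik (0.848 and 0.834). Map1lc3b encodes the autophagosome protein LC3B and Tdo2 the first enzyme of tryptophan breakdown in liver. Among the members, Slc39a14 came closest (0.614 and 0.859) and Slc30a10 ran opposite (-0.518 and -0.634). Slc39a4 gave -0.563 and -0.067, Slc30a1 0.283 and 0.166, and Mtf1 0.14 and 0.11. Libraries of 1 experiment share feeding state, time and virus, so these correlations are a description.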

How the data were processed

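Liver RNA was sequenced in 63 mouse libraries, and receptor-bound chromatin in 4 samples. The authors deposited 2 tables of counts per RefSeq row, and lists of peaks on mm10. STAR, HOMER and DESeq2 are named, without versions, in the submitters' processing notes. Between 75.7% and 85.1% of the counts from 1 to 10 were even, so a fragment may count as 2 reads and counting error is understated. The row of a gene with the highest total over both tables was used (40219 of 40458 rows matched a gene). Rows without a gene held 0.308% to 2.24% of counts in C57BL/6 and 2.43% to 28.6% in Nr3c1fl/fl libraries and stayed out of library sizes. No column of another sample was found (0).

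Counts were tested with edgeR 4.0.16 (R 4.3.3, limma 3.58.1), with TMM scaling, its filter on low counts, 1 quasi-likelihood fit per experiment and Benjamini-Hochberg adjustment over all genes at 0.05. SEs are the log2 change over the root of F. Alternatives were DESeq2 1.42.0, other scaling, no filter, the replicate number as a block, fewer groups, other rows, libraries left out, and the NR_046233 share. The code was tested on simulated data. The ratio test used numpy 2.4.6. Peak starts were read as counted from 0 and are printed from 1. Promoters and gene names come from RefSeq (GRCm38.p6). Beside the 7 members, text names up to 4 called genes of each list and the 6 most like genes. Members, lists and tests were chosen with earlier results of these data known. The 12 rat hepatocyte cultures were not used here.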

Additional observations from a re-analysis of the deposited data

How the results depend on the processing

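For the CRE minus GFP mean of the 6 times, the calls for Mt1, Mt2 and Slc39a14 held in every alternative run covering all 6. Their log2 changes were -2.53 to -2.23, -3.57 to -3.11 and -0.42 to -0.37 when each library was left out. The fit without the libraries with the highest NR_046233 shares kept no GFP library of ZT10. Its mean therefore cannot cover ZT10 and is not counted here. The replicate numbers do not pair the libraries (median correlation of deviations 0.02 and 0.01 for the same number), and the replicate block changed no member's call (Mt1 -2.37, Mt2 -3.36).

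Single times depended more on the setting. Counts without the libraries over 20% NR_046233 are not given, since that fit kept only the third GFP library of ZT12. At ZT12 members past the threshold were 3, and 1 with only the groups compared and with the NR_046233 covariate (1 to 3 with each library left out). At ZT14 they were 0, and 2 without the filter, with DESeq2, with only the groups compared and with the covariate. At ZT18 they were 0, and 2 with DESeq2 and with only the groups compared. The interaction gave 0 and DESeq2 1 (0 to 1 left out). The ZT12 minus ZT10 step in GFP gave 3 (0 to 3 left out). The ZT13 minus ZT12 step gave 1 in GFP, and 0 with only the groups compared or the covariate (0 to 1). In CRE it gave 1, and 2 with only the groups compared (0 to 2). Members near a peak were 4, and 7 in both wider lists.

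Reversed signs all concerned values past no threshold. The Slc30a10 mean ran from -0.0963 to 0.0442 with each library left out, and was 0.0442, 0.00479, 0.0111 and 0.00607 without GFP ZT13 replicate 2, GFP ZT14 replicate 2, CRE ZT14 replicate 3 and CRE ZT18 replicate 1. Without GFP ZT12 replicate 2 the Mt2 difference of the ZT12 step was 0.355 (lowest value over libraries left out -2.34), and the GFP step to ZT13 was 0.0652 for Mt1 (lowest -1.40) and 0.535 for Mt2 (lowest -1.45). That step was 0.21 and 0.52 with the covariate. It was 0.51 and 1.07 without the libraries over 20%, which left only the third GFP library at ZT12. The Mt1 difference of that step was 0.0215 without CRE ZT12 replicate 2 (lowest -1.77). The cause was not tested.

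Counts of all genes called also moved, given here with the range over libraries left out. DESeq2 called 197 at ZT10 (109 by edgeR, 43 to 78), 417 at ZT14 (247, 74 to 222), 80 at ZT18 (16, 1 to 6), 92 at ZT22 (23, 3 to 58) and 402 in the interaction (108, 67 to 266). In the ZT12 minus ZT10 step DESeq2 called 930 in GFP (598, 73 to 445), 564 in CRE (278, 13 to 144) and 1 in their difference (0). In the ZT13 minus ZT12 step it called 749 in GFP (464, 149 to 477) and 10 in the difference (0, 0 to 5), and CRE held 1474 (512 to 1271). With only the groups compared, 55 were called at ZT13 (792, 375 to 1343), 65 at ZT18, 0 at ZT22 and 0 in the GFP step to ZT13. With the covariate there were 52 at ZT10, 240 at ZT12 (589, 267 to 483), 60 in the interaction and 237 in the GFP step to ZT13. Counts without the libraries over 20% are not given, since that fit kept no GFP library of ZT10 and only the third of ZT12. Without the filter 171 were called in the CRE step to ZT12. Low counts limit Mt2 at ZT18 and ZT22, and 3 libraries a group limit every single time.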
